A study of Mus musculus with 12 samples.

Results

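The Krüppel-like factor genes described here are 10 rows of a table of 17202 genes measured in mouse cortex: Klf2, Klf3, Klf4, Klf6, Klf7, Klf9, Klf10, Klf13, Klf15 and Klf16. They were chosen by symbol, with the difference between vehicle-treated mutant and wild-type mice already known, and 3 of them (Klf2, Klf4 and Klf10) are named from that comparison in the study itself. All 10 passed the filter on low values (a mean normalized count of at least 10), as did 17111 of the 17202 genes. Frontal cortex was taken from 12 male mice of strain C57Bl6 in the labels (mostly C57BL/6J by the methods), 3 in each of 4 groups: 2 genotypes (WT and CD), each given vehicle (VEH) or the co-treatment (VERCUR). CD mice carry a heterozygous deletion from Gtf2i to Fkbp6 on chromosome 5, a model of Williams–Beuren syndrome, and WT mice are wild type. All mice come from a cross with a Thy1-YFP reporter line, in which the Thy1 promoter labels pyramidal neurons with a yellow fluorescent protein. VERCUR mice received curcumin (60 mg/kg/day in the labels), a phenol of turmeric, together with verapamil (10 mg/kg/day in the labels), a calcium channel blocker. VEH mice, called untreated in the labels, received the vehicle in their drinking water. By the labels, treatment began at 8 weeks and lasted 1 month, and the mice were 16 weeks old, whereas the methods of the study give a lower dose of verapamil and a younger age. The labels give no litter or cage, so the p values measure the spread between these mice alone.

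Krüppel-like factors are transcription factors with 3 zinc fingers at the carboxyl end, which bind GC-rich and CACCC sequences. Their amino ends differ and recruit either coactivators or corepressors, so that members activate or repress. In brain, Klf2 and Klf4 are known from the endothelium of vessels, where blood flow induces them, and Klf4 also from neurons, in which it restrains axon growth, as does Klf9. Klf6 and Klf7 are known to favor axon growth, Klf9 and Klf15 are induced by glucocorticoids, and Klf10 was first described as a gene induced early by TGF-beta.

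The libraries held 40290000 to 56480000 reads counted on genes per mouse, as recovered from the steps of the values, and replicates of a group correlated with r from 0.986 to 0.994 on the log2 scale. Of 22 genes tested inside the deleted interval, 16 were called lower in VEH-CD than in VEH-WT and 16 in VERCUR-CD than in VERCUR-WT, with median folds of 0.522 and 0.479. Mouse VERCUR-CD 2 stood apart: it alone held 54.8% of the sum of squares of the first principal component, which took 21.3% of the variance of all genes. Klf3 and Klf6 had their highest value there, and Klf7 its second highest. The labelled tissue was matched by its markers, since all 8 listed genes of cortical neurons were detected, at a summed normalized count of 474751 to 564213 per mouse. Markers of striatal neurons, which a cortical dissection should hold few of, summed to between 7343 and 32831, with 1 mouse of each group (VEH-WT 3, VERCUR-WT 3, VEH-CD 1 and VERCUR-CD 1) at 24114 or more and the others at 15643 or less, and those of the choroid plexus to between 114 and 188. In bulk tissue, fewer cells of a type and less RNA per cell cannot be told apart.

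Stretches upstream of Klf2, Klf4, Klf6, Klf9 and Klf15 are shown first. Each gene has a GC box, a short cAMP response element or both, as do Klf3, Klf7 and Klf13, which are not shown. RefSeq (GRCm38.p6) gave a promoter window of 300 bases, 250 before and 50 after the start, for 8 of the 10 genes, and Klf10 and Klf16 are named only. Each line runs 5′ to 3′ on the strand of the gene, ends before the start of transcription, and has in capitals the short cAMP response element (TGACG, or CGTCA on the other strand), the GC box (GGGCGG or CCGCCC), the E box (CACGTG) and the AP-1 site (TGANTCA).
Klf2: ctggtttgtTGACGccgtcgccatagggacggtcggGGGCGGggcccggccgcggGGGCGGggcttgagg
Klf4: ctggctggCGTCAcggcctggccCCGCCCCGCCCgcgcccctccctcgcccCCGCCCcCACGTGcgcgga
Klf6: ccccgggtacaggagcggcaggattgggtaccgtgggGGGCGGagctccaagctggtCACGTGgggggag
Klf9: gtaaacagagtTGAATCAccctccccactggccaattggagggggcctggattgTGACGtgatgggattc
Klf15: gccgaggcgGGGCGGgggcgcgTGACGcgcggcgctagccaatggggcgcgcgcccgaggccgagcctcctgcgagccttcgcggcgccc

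Klf2 and Klf4 both had a short cAMP response element followed by GC boxes at the far end of the window. The windows of Klf3, Klf13 and Klf15 also held both motifs, and a link of motifs to levels was not tested. In Klf2 (chr8:72318812-72318881, + strand) the short element began at position -241 from the start and the GC boxes at -214 and -195. In Klf4 (chr4:55532646-55532715, - strand) the short element lay at -232, with GC boxes at -217, -212 and -189 and an E box at -182. Klf6 (chr13:5861389-5861458, + strand) had no short element in its window, a GC box at -63 and an E box at -43. Klf9 (chr19:23141126-23141195, + strand) held the single AP-1 site among these 8 windows, at -89, and a short element at -46. Klf15 (chr6:90462476-90462565, + strand) had a GC box at -91 and a short element at -78.

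Over both strands of the 8 windows, 7 held a GC box, against 35.7% of 32851 promoters of the same length, and 6 held a short cAMP response element, against 20.8%. The E box was found in 3 of the 8, against 7.15%. A CACCC box (searched as CCACCC) was found in 4, against 31.5%, and a CCAAT box in 4, against 37.4%. The full cAMP response element (TGACGTCA), which holds the short one, the CArG box and a glucocorticoid response motif (AGAACA) were found in none of the 8, against 1.79%, 1.63% and 19.0% of all promoters. The windows were GC-rich, from 58.3% in Klf7 to 76.7% in Klf3, where the median of all promoters was 52.7%. These counts describe letters only, and binding was not measured.

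The 10 genes differed widely in level. Divided by the length of the union of their exons, the mean over 12 mice was highest in Klf9, at 1927 normalized counts per kb (1680 to 2253), and in Klf13, at 1798 (1685 to 1947), and these neighbors overlapped. Klf16 followed at 1210 per kb (1106 to 1330), and it overlapped neither Klf13 above it nor Klf6 below it, at 660 (568 to 809). Klf10 stood at 504 per kb (259 to 872), Klf7 at 355 (319 to 407), Klf15 at 345 (275 to 406) and Klf2 at 282 (196 to 501). Klf4, at 106 per kb (68.4 to 207), and Klf3, with 81.8 to 128 per kb, were lowest. From Klf6 downwards, each gene overlapped the next one in this order. The level of Klf7 is uncertain, because 39.3% of its exon bases are shared with Gm26649 on the opposite strand, and whether the counting used strand is not given in the sources used here. Klf3 shared 3.59% of its exon bases with the opposite-strand Gm20033.

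A high level in VEH-WT and a lower one in all other groups was found without overlap in Klf2 and Klf4 only. In these genes the 3 VEH-WT mice lay above the 9 other mice, which was so for 1.43% of all genes tested. Klf6 was the reverse, with the 3 VEH-WT mice below the 9 others, as in 0.964% of genes. Klf10 followed Klf2 and Klf4 with more spread, and Klf7, Klf13 and Klf16 hardly varied.

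Klf2, a zinc finger factor that keeps endothelium quiescent, lies at chr8:72319033-72321656. The VEH-WT mice had normalized counts of 636.6, 924.9 and 724.9, and the VEH-CD mice of 387.3, 361.1 and 415.7. In VERCUR-WT they were 517.5, 421.4 and 559.7, and in VERCUR-CD 453.7, 420.9 and 430.2. The VEH-WT mice were thus the highest, the VEH-CD mice the lowest, and both co-treated groups lay between them. The means were 762.1 ± 148 in VEH-WT, 388.0 ± 27.3 in VEH-CD, 499.6 ± 70.9 in VERCUR-WT and 434.9 ± 16.9 in VERCUR-CD (SD, n = 3).

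Klf4, a factor used in reprogramming cells to pluripotency and a partner of Klf2 in endothelium, lies at chr4:55527143-55532466. Its values were 388.9, 630.4 and 409.4 in VEH-WT against 251.4, 258.7 and 208.4 in VEH-CD. They were 325.2, 300.1 and 261.3 in VERCUR-WT and 274.0, 295.9 and 265.6 in VERCUR-CD. A single mouse, VEH-WT 2, had the highest level by a wide margin, yet the other two VEH-WT mice were also above all mice of the other groups. The means were 476.2 ± 134, 239.5 ± 27.2, 295.5 ± 32.2 and 278.5 ± 15.6, with vehicle first, co-treatment second, and WT before CD in each.

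Klf10, a repressor at chr15:38291463-38300706, had normalized counts of 2989, 3644 and 2315 in the VEH-WT mice and of 1084, 1780 and 1435 in the VEH-CD mice. It had 2156, 1230 and 2142 in VERCUR-WT and 2464, 1855 and 2189 in VERCUR-CD. All VEH-CD mice were below all VEH-WT and all VERCUR-CD mice, but VERCUR-CD 1 exceeded VEH-WT 3, and VERCUR-WT 2 fell among the VEH-CD mice. Its coefficient of variation was 14.0% to 28.8% within groups, and the highest mouse had 3.36 times the lowest.

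Klf6, which is also induced by injury and growth factors, lies at chr13:5861482-5870394. Its values were 2612, 2494 and 2545 in VEH-WT, 2906, 3206 and 3143 in VEH-CD, 3131, 2959 and 2744 in VERCUR-WT, and 2649, 3553 and 2824 in VERCUR-CD. The VEH-WT mice were close to each other (2550 ± 59.0) and below the rest. The group means of the rest were 1.155 to 1.21 times that of VEH-WT.

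**Figure D1:**
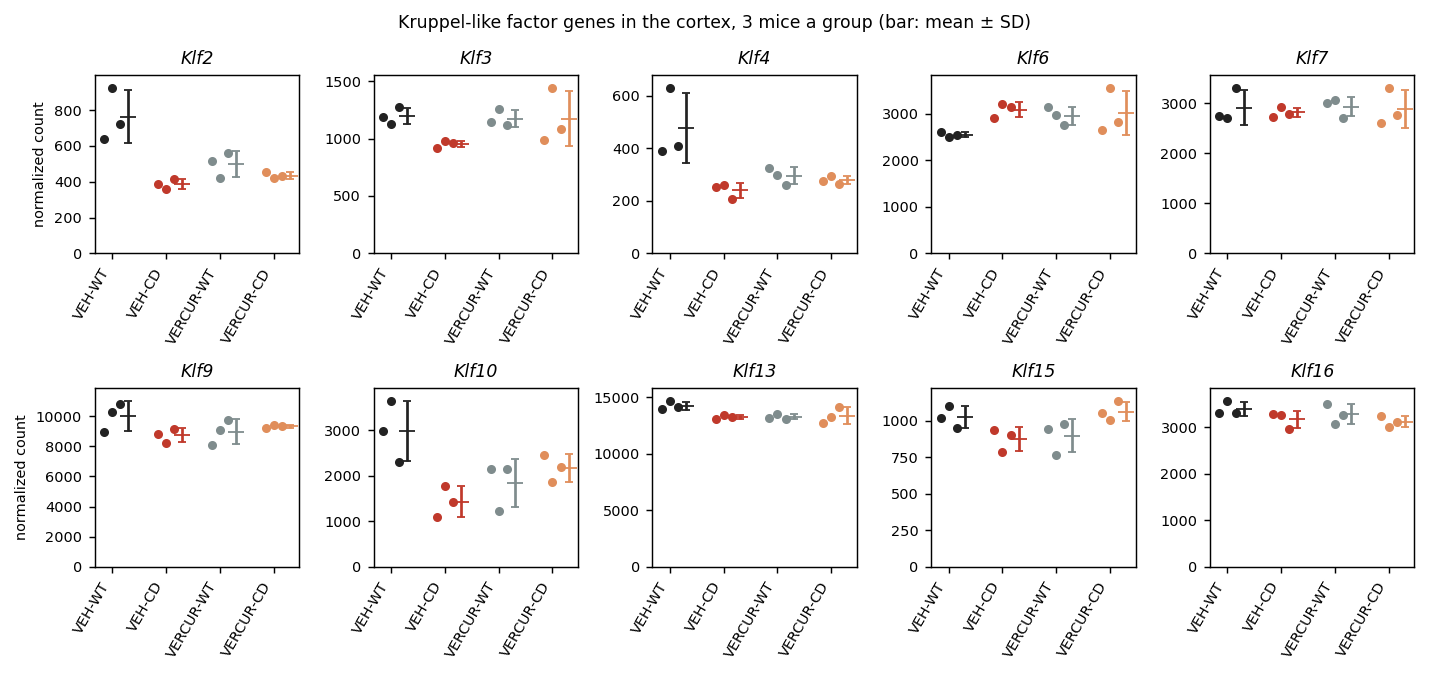
Normalized counts (vertical axes, from 0) of the 10 Krüppel-like factor genes in each of 12 mice, with 1 point a mouse and the mean ± SD of each group of 3 beside them. In Klf2 and Klf4 the 3 VEH-WT points lie above the 9 others, in Klf6 below them, and Klf13 stays between 12688 and 14664.

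Klf9 and Klf15 are known targets of the glucocorticoid receptor. Klf9 (chr19:23141226-23168134) had 8930, 10302 and 10850 in VEH-WT, 8841, 8256 and 9164 in VEH-CD, 8090, 9096 and 9785 in VERCUR-WT, and 9247, 9425 and 9348 in VERCUR-CD. VEH-WT 2 and VEH-WT 3 were the highest of the 12 mice, while VEH-WT 1 lay among those of the other groups. Klf15 (chr6:90462576-90475238) had 1021, 1099 and 950.9 in VEH-WT, 936.9, 782.3 and 899.6 in VEH-CD, 946.0, 767.8 and 978.0 in VERCUR-WT, and 1049, 1004 and 1134 in VERCUR-CD. Both CD groups were on opposite sides of their WT group in Klf15: below it under vehicle and above it under co-treatment, in each case without overlap.

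Klf3, a repressor that binds the corepressor CtBP, had 1185, 1130 and 1275 in VEH-WT, 919.8, 975.7 and 961.9 in VEH-CD, 1149, 1256 and 1115 in VERCUR-WT, and 987.7, 1443 and 1087 in VERCUR-CD (chr5:64803388-64832901). Its 3 lowest mice were those of VEH-CD, and the spread of VERCUR-CD came from mouse 2. Klf7 ranged from 2595 to 3307, Klf13 from 12688 to 14664 and Klf16 from 2956 to 3557 over the 12 mice, a factor of 1.27, 1.16 and 1.2 between the lowest and the highest mouse. Klf13 and Klf16, which recruit the Sin3 corepressor, were nonetheless a little higher in each VEH-WT mouse than in each VEH-CD mouse.

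The difference between VEH-CD and VEH-WT, which the choice of these genes used, is therefore a description and carries no test here. On the scale of log2(normalized count + 1), Klf10 differed by -1.06 ± 0.23 (SE), Klf2 by -0.96 ± 0.13 and Klf4 by -0.96 ± 0.16, that is, VEH-CD had 0.479, 0.515 and 0.514 times the VEH-WT level. The differences of Klf3 (-0.33 ± 0.12), Klf15 (-0.23 ± 0.1) and Klf9 (-0.19 ± 0.08) were smaller. Klf13 (-0.11 ± 0.05), Klf16 (-0.1 ± 0.07) and Klf7 (-0.04 ± 0.1) lay near 0, and Klf6 was at 0.27 ± 0.1. Of the 10 genes, 9 were below 0, where 50.7% of all genes were. Groups did not overlap for 7 that were lower (all but Klf6, Klf7 and Klf9; 11.4% of all genes) and for Klf6, which was higher (9.28%). A DEG was a gene with an adjusted p under 0.05 in limma and a log2 fold change over 0.32 or under -0.42, and 0.257% of all genes met both. Klf2 and Klf4 were among these, and Klf10 was not. The call of Klf4 rested on single mice: it was lost without VEH-WT 2, VEH-WT 3, VERCUR-WT 2, VERCUR-CD 3 or any 1 of the 3 VEH-CD mice, while its difference stayed between -1.09 and -0.74.

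The effect of the deletion on these genes under co-treatment was tested in the co-treated groups. Every mouse there received curcumin and verapamil, so this is not a repeat of the vehicle comparison in other mice. The differences between these groups share no mouse with the first comparison. Their intervals and p values are not independent of it, because all groups were fitted together and the spread of the vehicle-treated mice enters them. No member was a DEG of VERCUR-CD against VERCUR-WT, where 0.146% of all genes were, and in limma the adjusted p was 1.0 for each of the 10. The difference was -0.19 in Klf2 (95% interval -0.48 to 0.1), -0.08 in Klf4 (-0.44 to 0.28) and 0.27 in Klf10 (-0.24 to 0.78). For Klf6 the difference was 0.02 (-0.18 to 0.23), and for Klf3 it was -0.02 (-0.27 to 0.23). Klf15 had the single unadjusted p under 0.05 among the 10, 0.0326, with a difference of 0.25 (0.02 to 0.47) and no overlap of its groups, in a comparison where 4.1% of all genes had such a p and 3.91% were higher without overlap. No member had such a p when only the groups compared were fitted, or without VERCUR-CD 1 or VERCUR-CD 3. Without VERCUR-CD 2, such a p was found for 2 members. The other four, Klf7, Klf9, Klf13 and Klf16, differed by -0.07 to 0.06. Of the 10 genes, 5 were below 0, as were 48.4% of all genes.

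Co-treatment was compared with vehicle in each genotype, in comparisons that share mice with the first and are again descriptions for these genes. In wild-type mice, VERCUR-WT against VEH-WT, Klf10 differed by -0.72 ± 0.23, Klf4 by -0.66 ± 0.16 and Klf2 by -0.6 ± 0.13, and Klf6 by 0.21 ± 0.1. Klf2, Klf4, Klf10 and Klf13 were lower without overlap (5.25% of all genes) and Klf6 was higher without overlap (4.48%). In CD mice, VERCUR-CD against VEH-CD, Klf10 differed by 0.62 ± 0.23, Klf15 and Klf3 by 0.28 (± 0.1 and ± 0.12), Klf4 by 0.22 ± 0.16 and Klf2 by 0.17 ± 0.13. The difference of Klf3 rested on VERCUR-CD 2 and was 0.12 without that mouse. Klf2, Klf3, Klf4, Klf9, Klf10 and Klf15 were higher without overlap, and 3.71% of all genes were. Neither comparison had a DEG among all genes (0.0% in each) in limma, with 893 (5.22%) and 605 (3.54%) genes at an unadjusted p under 0.05. Limma's voom on the recovered reads also called 0 in each.

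The deletion effects under co-treatment and under vehicle differed by 1.33 ± 0.33 in Klf10, 0.88 ± 0.23 in Klf4, 0.77 ± 0.19 in Klf2, 0.48 ± 0.15 in Klf15, 0.31 ± 0.16 in Klf3, 0.25 ± 0.12 in Klf9 and -0.25 ± 0.13 in Klf6. Without VERCUR-CD 2 the value of Klf3 was 0.15. In Klf9, Klf10 and Klf15 each VEH-CD mouse was below the VEH-WT mean and each VERCUR-CD mouse above the VERCUR-WT mean, and 5.95% of all genes had such opposite sides in either direction. For Klf10 this was lost without VERCUR-WT 2 (the mean of VERCUR-WT was then 2149 and the deletion effect under co-treatment 0.0044 in place of 0.27), and for Klf9 without VERCUR-WT 1. The value was above 0 in 9 of the 10 genes and in 51.5% of all genes, and the first comparison enters it with a minus sign. The interaction of genotype and treatment called 0.0% of all genes at an adjusted p under 0.05 in limma (0 genes, with 1035, or 6.05%, at an unadjusted p under 0.05), and voom called 0 too.

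**Figure D2:**
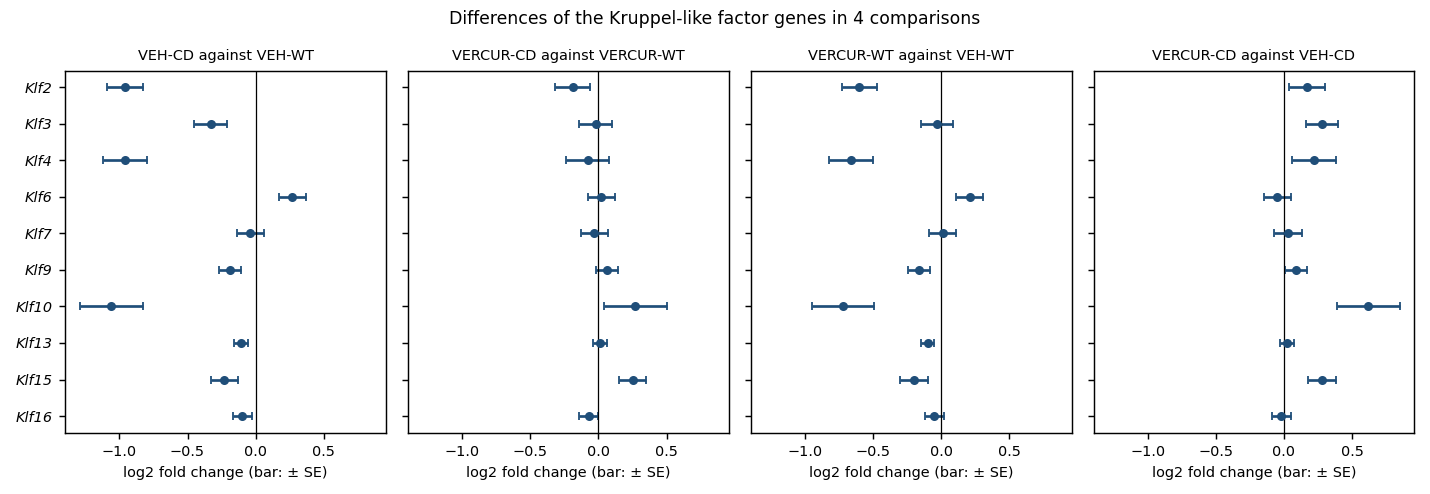
Log2 fold change (horizontal axes) of each gene in 4 comparisons, with bars of ± SE from the fit over all genes. Klf2, Klf4 and Klf10 lie between -1.06 and -0.96 for VEH-CD against VEH-WT and between -0.19 and 0.27 for VERCUR-CD against VERCUR-WT. The differences of the second panel share no mouse with those of the first, and the rest share some. The bars of every panel use the spread of the mice of all groups.

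Over the 12 mice, Klf2 and Klf4 correlated with r = 0.89, Klf2 and Klf10 with 0.78, and Klf4 and Klf10 with 0.72, while Klf2 and Klf6 stood at -0.73. These are descriptions over mice that share groups. Once each mouse was taken as its deviation from its group mean, Klf2 and Klf10 kept 0.55, Klf2 and Klf4 had 0.42 and Klf4 and Klf10 had 0.24. In the deviations, Klf3, Klf6 and Klf7 moved together, with r = 0.88 for Klf3 and Klf6, 0.88 for Klf3 and Klf7 and 0.74 for Klf6 and Klf7. Without VERCUR-CD 2 the r of deviations was 0.51 for Klf3 and Klf6, 0.84 for Klf3 and Klf7 and 0.47 for Klf6 and Klf7. Over all mice, Klf3 and Klf6 had r = 0.11, and -0.43 without that mouse, and Klf3 and Klf7 had 0.72, and 0.59 without it.

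**Figure D3:**
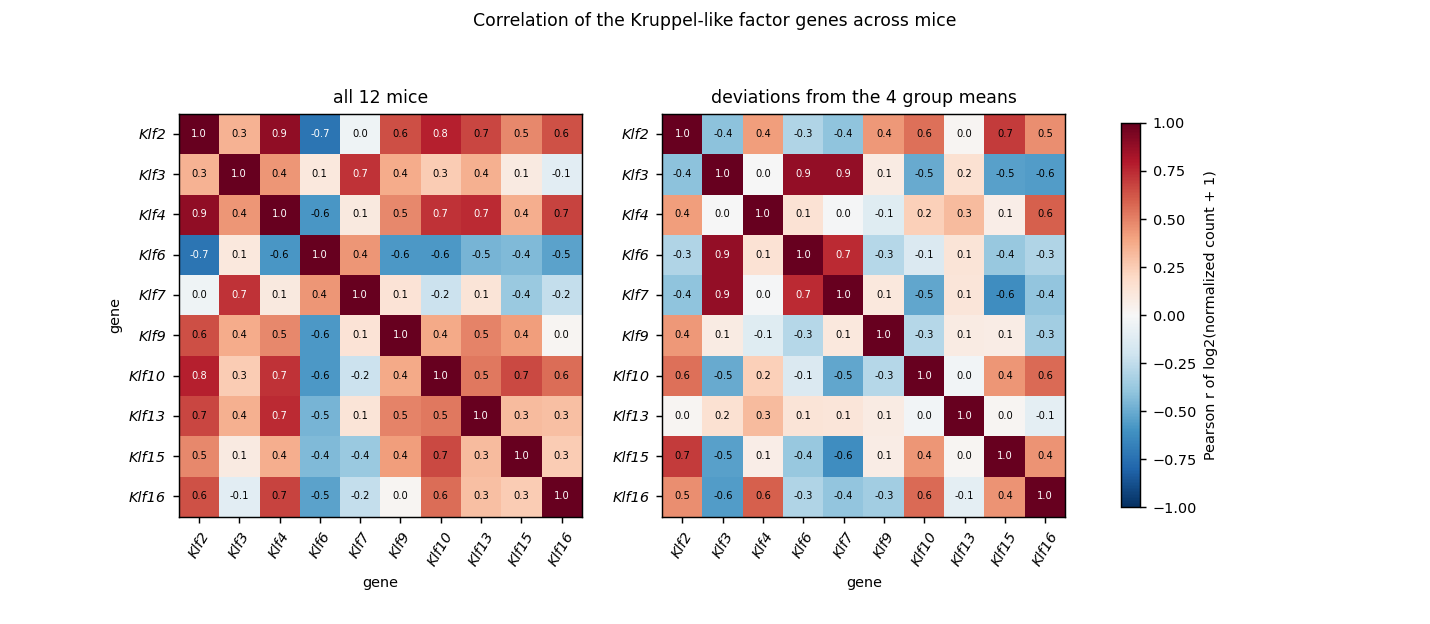
Pearson r between the 10 genes on the log2 scale, over 12 mice (left) and over deviations from the 4 group means (right), colored from -1 to 1. Klf2, Klf4 and Klf10 form a block with r of 0.72 to 0.89 on the left, and Klf3, Klf6 and Klf7 a block with r of 0.74 to 0.88 on the right.

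The genes of the table closest to each member over the 12 mice were taken as the 3 of highest r. For Klf10 these were Dusp6, a phosphatase of ERK (r = 0.966), Trib1 (0.954) and Phf13 (0.946). In the deviations from group means they kept 0.961, 0.917 and 0.892. For Klf2 they were Sik1, a kinase induced by cAMP (0.937), Gem, a small GTPase induced by activity (0.928), and Tent5a (0.924). For Klf9 they were Tsc22d3, which encodes the glucocorticoid-induced leucine zipper (0.906), Sgk1, a kinase induced by glucocorticoids (0.901), and Rcan2 (0.899). In the deviations, Sgk1 was the gene closest to Klf9 of all those tested, at 0.929.

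Klf4 was closest to Grpel2 (0.970), Cnnm4 (0.951) and Znfx1 (0.938), and Klf6 to Tbck (0.910), Pdk1 (0.907) and Aida (0.903). For Klf3 these were Gclm (0.964), Cachd1 (0.961) and Soat1 (0.953), for Klf7 Snx9 (0.915), Chst11 (0.903) and Naaladl2 (0.901), and for Klf13 Ccdc43 (0.930), Foxred2 (0.926) and Zfp703 (0.921). Klf15 was closest to Ism1 (0.915), 4930458D05Rik (0.873) and Gm37847 (0.854), and Klf16 to Nlrp6 (0.974), Col27a1 (0.921) and Rnf223 (0.904). These values were the highest of 17111 genes by choice and carry no test.

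The 15 immediate early genes, which neurons induce within minutes of activity, were also highest in VEH-WT. Their summed level was 0.428 of VEH-WT in VEH-CD, 0.616 in VERCUR-WT and 0.576 in VERCUR-CD. All 15 had a difference below 0 in VEH-CD against VEH-WT, with a median of -1.1 (all genes -0.003), and none was a DEG in any of the 4 comparisons. Arc, a regulator of synaptic strength, ranged from 1948 to 34120 normalized counts, with the lowest value in VERCUR-WT 2 and the next lowest in VEH-CD 1. Under co-treatment the list's median deletion effect was 0.05, from -0.44 ± 0.23 in Egr4 to 0.58 ± 0.69 in Arc (adjusted p 1.0 for both in limma). The sum ranged from 77462 to 122129 in VEH-WT, 28355 to 54309 in VEH-CD, 44590 to 71645 in VERCUR-WT and 47767 to 66758 in VERCUR-CD, and its part in the levels of the Krüppel-like factors was not tested.

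The mean log2 level of this list correlated with Klf10 at r = 0.92 and rho = 0.88 over the 12 mice, and with Klf2 at r = 0.82 and rho = 0.9. Both sides of these values differ between groups, and the deviations within groups are the part that the choice of genes did not use. Within groups, Klf10 kept r = 0.88 (exact permutation p = 0.0139, adjusted 0.208) and rho = 0.9 (exact permutation p = 0.00694, adjusted 0.123), two-sided, over 1296 arrangements of mice within their groups and adjusted over 30 relations. Leaving out VERCUR-WT 2 and VEH-CD 1, the mice farthest from the median, gave r = 0.73. For Klf2 the deviations gave r = 0.63 (exact permutation p = 0.0679, adjusted 0.343). None of the 30 relations passed the correction.

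The 13 glucocorticoid-responsive genes, to which hormone and circadian phase contribute, summed to 0.737 of VEH-WT in VEH-CD, 0.79 in VERCUR-WT and 0.841 in VERCUR-CD. Of these, 10 were below 0 in VEH-CD against VEH-WT (median -0.43), and none was a DEG in any of the 4 comparisons. Under co-treatment the list's median deletion effect was also 0.05, from -0.15 ± 0.17 in Cdkn1a, an inhibitor of the cell cycle, to 0.29 ± 0.25 in Per1, a clock gene. Over the 12 mice the list correlated with Klf9 at r = 0.9 and rho = 0.87. Within groups, Klf9 kept r = 0.84 (exact permutation p = 0.00772, adjusted 0.208) and rho = 0.85 (exact permutation p = 0.0123, adjusted 0.123), and without VEH-WT 1 and VEH-CD 2 r was 0.71. Klf15, the other known target of the receptor, had r = 0.6 over the mice and 0.47 within groups (exact permutation p = 0.173, adjusted 0.523). Klf4 had r = 0.66 over the mice and 0.01 within groups. Klf2 and Klf6, which were not chosen as receptor targets, also correlated with the list, Klf6 inversely, and neither passed the correction within groups. Klf2 had r = 0.84 over the mice and 0.71 within groups (exact permutation p = 0.0687, adjusted 0.343). Klf6 had r = -0.75 over the mice and -0.51 within groups (exact permutation p = 0.0417, adjusted 0.312). Without VEH-WT 2 and VEH-WT 3, the r over the mice was 0.53 for Klf2 and -0.59 for Klf6.

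**Figure D4:**
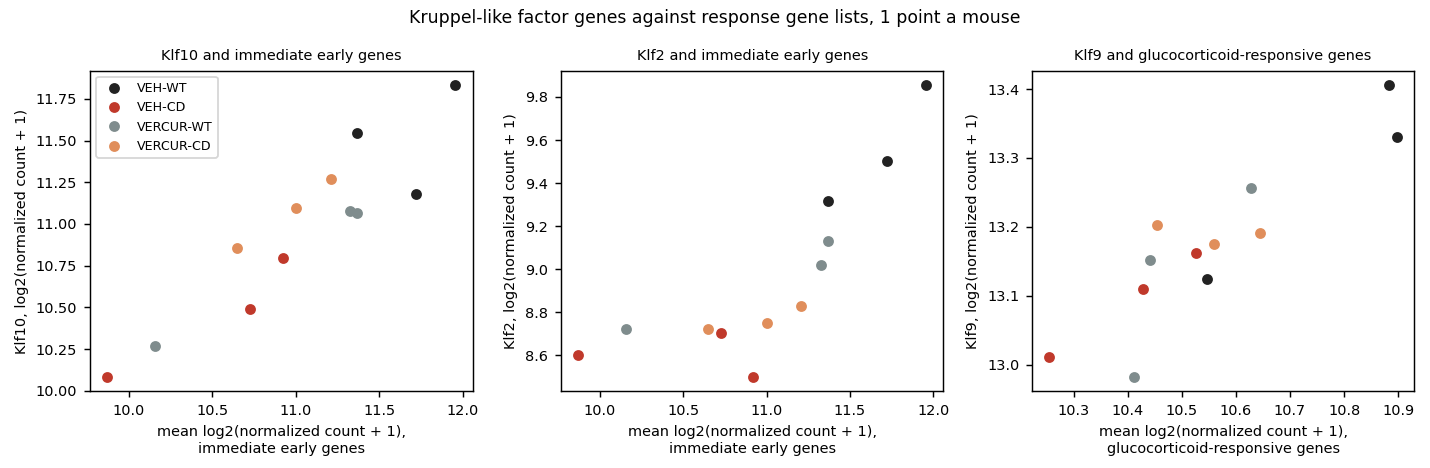
Each point is 1 of 12 mice, colored by group, with the mean log2(normalized count + 1) of a gene list on the horizontal axis and that of Klf10, Klf2 or Klf9 on the vertical axis. Klf10 is higher in mice with more RNA of the immediate early genes (r = 0.92), and Klf9 in those with more of the glucocorticoid-responsive genes (r = 0.9), where 2 VEH-WT mice lie at the upper end.

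Markers of the endothelium, the best known site of Klf2 and Klf4, were near the VEH-WT level in every group. All 10 were detected, and they summed to 1.025 of VEH-WT in VEH-CD, 1.078 in VERCUR-WT and 1.086 in VERCUR-CD, with a median difference of 0.0 in VEH-CD against VEH-WT and no DEG. Their mean log2 level had r = -0.42 with Klf2 and -0.32 with Klf4 over the mice, and -0.69 and -0.35 within groups (exact permutation p = 0.0826 and 0.458, adjusted 0.354 and 0.787). Within groups, Klf10 stood at -0.81 with these markers (exact permutation p = 0.0262, adjusted 0.262). Of 6 endothelial targets of KLF2 and KLF4, 5 were tested (Klk10 was not in the table) and none was a DEG. All 5 were below 0 in both deletion comparisons, as were 50.7% of all genes under vehicle and 48.4% under co-treatment. None of them had an unadjusted p under 0.05 in limma in either, and which cells their RNA came from was not tested. Their medians were -0.19 under vehicle and -0.2 under co-treatment. In VERCUR-CD against VERCUR-WT they ranged from -0.33 ± 0.21 in Thbd, the thrombin receptor thrombomodulin, to -0.15 ± 0.13 in Nos3, the endothelial nitric oxide synthase. In VERCUR-WT against VEH-WT, where Klf2 and Klf4 were lower, 4 of the 5 were above 0 (median 0.06). Above 0 were also 3 of the 5 in VERCUR-CD against VEH-CD (median 0.04).

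No gene of the signals known to act upstream was a DEG. Of 10 genes of the MEKK3-ERK5-MEF2 cascade and the CCM complex, which control Klf2 and Klf4 in endothelium, none was a DEG in any comparison, and the median difference was 0.05 in VERCUR-CD against VERCUR-WT. Map3k3, which encodes MEKK3, stood at -0.26 ± 0.09 in VEH-CD against VEH-WT and at 0.16 ± 0.09 under co-treatment, the highest of the list there, and Mef2d was lowest at -0.11 ± 0.1. Of 9 genes of TGF-beta signaling, upstream of Klf10, none was a DEG, with medians of -0.1 under vehicle and 0.05 under co-treatment. There the ligand Tgfb1 was lowest at -0.18 ± 0.11 and the receptor Tgfbr1 highest at 0.2 ± 0.13.

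Genes for partners of the proteins were near the VEH-WT level as well. The 8 corepressors and coactivators summed to 0.975 of VEH-WT in VEH-CD, 0.965 in VERCUR-WT and 0.976 in VERCUR-CD, and none was a DEG. Under co-treatment they ran from -0.17 ± 0.08 in Sin3b, a scaffold of the Sin3 corepressor, to 0.18 ± 0.15 in the acetyltransferase Kat2b.

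Of 17 further genes of the KLF and SP family, 14 were in the table, and Klf1, Klf17 and Klf18 were not. None was a DEG in any of the 4 comparisons. The median difference was -0.01 in VEH-CD against VEH-WT, where that of the 10 genes was -0.21 and that of all genes -0.003. Because the 10 genes were chosen with this comparison known, their distance from the rest of the family is not a test. Of the 14, 7 were above 0 and 7 below 0 under vehicle. Klf14 was lowest there, at -0.62 ± 0.3, and stood at -0.69 ± 0.3 in VERCUR-WT against VEH-WT. Like Klf2 and Klf4 it was highest on average in VEH-WT, at a low mean of 22.66 normalized counts over the mice. Its groups overlapped, with VEH-CD 2 at 29.14 and VEH-WT 3 at 28.68. In VERCUR-CD against VERCUR-WT the family ranged from -0.27 ± 0.31 in Sp6 to 0.33 ± 0.13 in Sp8 (adjusted p 1.0 for both in limma). The sum of these 14 genes was highest in VERCUR-CD 2, at 9280 against 6056 to 7503 in the 11 other mice.

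Markers of other cells that the tissue could hold were set beside these genes, and no marker gene of any list was a DEG. Microglial markers, 8 of 8 detected, had a sum in VEH-CD of 1.054 times VEH-WT and in VERCUR-CD of 1.116 times, mural cell markers to 1.003 and 1.059, and astrocyte markers to 1.025 and 1.114. Oligodendrocyte markers summed to 0.855 in VEH-CD, 0.745 in VERCUR-WT and 0.799 in VERCUR-CD, with a range of 143902 to 225888 in VEH-WT, 134524 to 170328 in VEH-CD, 78644 to 202763 in VERCUR-WT and 121005 to 172742 in VERCUR-CD. Like Klf2 they were highest on average in VEH-WT, and their part in its levels was not tested. Striatal neuron markers summed to 1.042 times VEH-WT in VEH-CD, 0.818 in VERCUR-WT and 0.696 in VERCUR-CD, and their part in the levels of the 10 genes was not tested. Meningeal fibroblast markers stood at 0.937 in VEH-CD, and red blood cell markers at 1.316, with 1 mouse, VEH-CD 3, at 35997 and the rest between 17575 and 26911.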

How the data were processed

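The authors sequenced RNA of frontal cortex from 12 mice on paired-end libraries, used STAR 2.5.3a for alignment to GRCm38 (per the submitters' processing notes) and counted reads per gene. The authors deposited counts per gene divided by 1 factor per sample (normalized counts, not raw counts), and the counting program, its use of strand and the normalization are not given in the sources used here. The other deposited tables hold expression relative to VEH-WT for genes that the authors had selected, and were not used here. Groups were taken from the labels of the samples. Low values of every mouse were multiples of the value of 1 read (within 0.1 of it), which gave the reads counted per mouse, 40290000 to 56480000.

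Values were tested as log2(normalized count + 1) with limma 3.58.1 (R 4.3.3) over the 17111 genes with a mean of at least 10, with all 12 mice, 4 group means and an intensity trend. Two-sided p values were corrected by Benjamini-Hochberg over every gene tested in a comparison. The test was checked on simulated data for VERCUR-CD against VERCUR-WT. It called 96 of 100 genes changed by 1 on the log2 scale and 65 of 100 changed by 0.6, with 6 false calls. The changed genes were drawn from those with a mean over 50, so the shares do not cover genes with means from 10 to 50. Every simulated mouse was drawn with the same spread per gene, so no mouse stood apart as VERCUR-CD 2 did. With 3 mice against 3, an exact permutation test of a single gene cannot go below p = 0.1. Relations between genes and lists over mice were tested by exact permutation of mice within groups (smallest p 0.000772).

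Gene positions and exon lengths come from GENCODE M21 (GRCm38), and promoter windows from RefSeq (GRCm38.p6). The 10 genes, the lists and the tests were chosen with earlier results of these data known, so that patterns of VEH-CD against VEH-WT are descriptions. The genes named are the 10 members, the highest and lowest gene of each list in VERCUR-CD against VERCUR-WT (and any DEG of a list), and the 3 genes of highest r with each member. Other genes named by value (Map3k3 under vehicle, Arc by mouse, Klf14) were taken after their values were seen.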

Additional observations from a re-analysis of the deposited data

Results flagged for a closer look

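In Klf9, Klf10 and Klf15, every VEH-CD mouse was below the mean of VEH-WT and every VERCUR-CD mouse was above the mean of VERCUR-WT. The deletion effect under co-treatment exceeded that under vehicle by 1.33 on the log2 scale in Klf10, by 0.48 in Klf15 and by 0.25 in Klf9. Opposite sides of this kind, in either direction, were found for 5.95% of all genes tested. These differences were not tested for the 3 genes, because the choice of genes used the vehicle comparison, and the interaction over all genes called 0 of 17111 in limma, with 1035 at an unadjusted p under 0.05. For Klf10 the pattern rested on VERCUR-WT 2 (1230 normalized counts, against 2156 and 2142 in the other two mice). Without that mouse, VERCUR-CD 2 at 1855 was below the VERCUR-WT mean of 2149, the deletion effect under co-treatment was 0.0044 in place of 0.27, and the difference between the effects was 1.07. For Klf9 the pattern was lost without VERCUR-WT 1, and for Klf15 it held without each mouse in turn. The sum of immediate early genes was 0.428 of VEH-WT in VEH-CD, 0.616 in VERCUR-WT and 0.576 in VERCUR-CD, where Klf10 had 0.48, 0.618 and 0.727. The sum of glucocorticoid-responsive genes was 0.737, 0.79 and 0.841, where Klf9 had 0.873, 0.897 and 0.931. The part of these lists in the differences was not tested.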

How the results depend on the processing

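Of 1090 recomputed log2 differences of the 10 genes, 33 changed sign, all of genes whose difference with all mice was at most 0.06 in size, and none was over 0.1 in size afterwards. Of these, 11 belonged to VERCUR-CD against VERCUR-WT, and each of the 11 came from leaving out 1 mouse. There Klf3 ranged from -0.18 to 0.1, Klf6 from -0.1 to 0.11, Klf7 from -0.13 to 0.05, Klf9 from -0.01 to 0.12 and Klf13 from -0.03 to 0.05, and Klf10, which kept its sign, from 0.0044 (without VERCUR-WT 2) to 0.41. Without VERCUR-CD 2, Klf3 fell from 0.28 to 0.12 in VERCUR-CD against VEH-CD and from 0.31 to 0.15 in the interaction, more than 1 SD. The number of the 10 genes among the DEGs of VEH-CD against VEH-WT was 2, and 1 without the intensity trend, with only the groups compared, or with voom on the recovered reads, an alternative chosen after seeing the data. In those 3 settings the adjusted p of Klf4 was 0.0897, 0.0874 and 0.0547, and the cause was not tested. Leaving out 1 mouse gave 1 to 2 of the 10 genes and 24 to 71 DEGs (44 with all mice, 71 without VERCUR-CD 2, 28 without VEH-WT 3, and 24 without any 1 of VEH-WT 2, VEH-CD 1 and VEH-CD 3). Klf2 was called in all 12 of these fits, Klf4 in 5, and Klf10 in 1 (adjusted p 0.0489 in limma without VERCUR-WT 2). The genes were chosen with this comparison known and the fits reuse its mice. These counts therefore describe how the calls depend on single mice and are no test of the genes. For VERCUR-CD against VERCUR-WT the range was 23 to 28 DEGs (25 with all mice), for VERCUR-WT against VEH-WT 0 to 3, for VERCUR-CD against VEH-CD 0 to 2, and for the interaction 0, with 0 of the 10 genes in each of these 4.

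The r of deviations from the 4 group means was 0.42 for Klf2 and Klf4, 0.55 for Klf2 and Klf10, 0.24 for Klf4 and Klf10 and 0.88 for Klf3 and Klf6 (over the mice 0.89, 0.78, 0.72 and 0.11). Without VERCUR-CD 2, an alternative chosen after seeing the data, r over the mice was 0.9, 0.78, 0.72 and -0.43, and 0.59 for Klf3 and Klf7, and the r of deviations was 0.45, 0.55, 0.3, 0.51 and 0.84 for these 5 pairs. The replicate numbers do not pair the mice. The r of deviations of same-numbered mice ran from -0.347 to 0.267, 4 of 18 pairs were over 0.1, and 1 of 12 mice correlated best with its own number. The replicate block gave 40 DEGs for VEH-CD against VEH-WT and 26 for VERCUR-CD against VERCUR-WT, with 2 and 0 of the 10 genes. Count tests with edgeR and DESeq2 were planned and not run, and voom on the recovered reads was run in their place. The 40290000 or more reads per mouse left no member near the floor of counting, and 3 mice a group limit the precision.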
